A study of Ictalurus punctatus with 14 samples.

Results

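HCEA is the hatching enzyme gene of channel catfish, *Ictalurus punctatus*, that is described here, 1 gene of 23231 in the count table. It was chosen by its gene identifier in the count table. HCEA is gene 108259527's name in the study, which describes it as a high choriolytic enzyme, and the RefSeq annotation of the assembly Coco_2.0 lists the gene as LOC108259527. RNA was sequenced from whole fish of the Kansas strain, which were compared by age, with no treatment or genotype compared. The 7 stages were day 2 post-fertilization (dpf) and each day between 5 and 10 dpf, with 2 replicate libraries per stage and 14 in all, each made from a pool of 4 fish. At 2 dpf the embryos were still inside the chorion. For 5 dpf the study describes larvae that moved slowly in the water, and it gives no time of hatching. Food was offered from 7 dpf.

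Fish embryos leave the egg by digesting the egg envelope, or chorion, from the inside. The enzymes that do this are secreted by hatching gland cells, a transient cell type of the embryo. In medaka the high choriolytic enzyme swells the envelope and the low choriolytic enzyme then dissolves it. Both are zinc metalloproteases of the astacin family, which also holds bone morphogenetic protein 1, the tolloid proteases and the meprins. In many fishes hatching enzyme genes are multi-copy and lie close together.

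Total counts lay between 4349807 and 16097718 per library. The libraries of 5, 7 and 9 dpf were all shallower (at most 6755272) than those of 2, 6, 8 and 10 dpf (at least 7944619), so depth alternated with stage from 5 dpf on. The study's sequencing summary divides the stages in the same way by mapping rate, the share of reads aligned. The replicates of 9 dpf stood apart from each other, and so did those of 10 dpf. The trypsin gene prss1 had 8.60 and 66.0 CPM, which are counts scaled to the size of a library, in the 9 dpf libraries, and 147 and 7.31 CPM in the 10 dpf libraries. Comparisons with 10 dpf are therefore also given without one of its libraries where this moved them. CPM values were normalized by the trimmed mean of M-values (TMM) throughout.

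At 2 dpf HCEA took 0.152% and 0.156% of all counts in the 2 libraries, or 16295 and 17047 counts. It then fell at every later stage up to 9 dpf, where 7 and 4 counts were left. The libraries had 1731 and 1778 CPM at 2 dpf. The 5 dpf libraries had 198 and 176 CPM, and the 6 dpf libraries had 81.6 and 92.4 CPM. Both 5 dpf libraries lay below both 2 dpf libraries, as they did in 40.1% of genes. The 6 dpf libraries lay below those of 5 dpf, as in 35.9% of genes.

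At 7 dpf HCEA had 26.7 and 22.4 CPM (162 and 151 counts). At 8 dpf it had 5.86 and 8.30 CPM (91 and 72 counts). At 9 dpf it had 0.987 and 0.742 CPM. Each of these 3 stages too lay below the stage before without overlap, as did 34.4% of genes at 7 dpf, 29.6% at 8 dpf and 22.1% at 9 dpf. At 10 dpf the libraries had 1.03 and 0.111 CPM (11 counts and 1 count), and here the stages overlapped, since the 9 dpf values lay between those of 10 dpf.

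**Figure D1:**
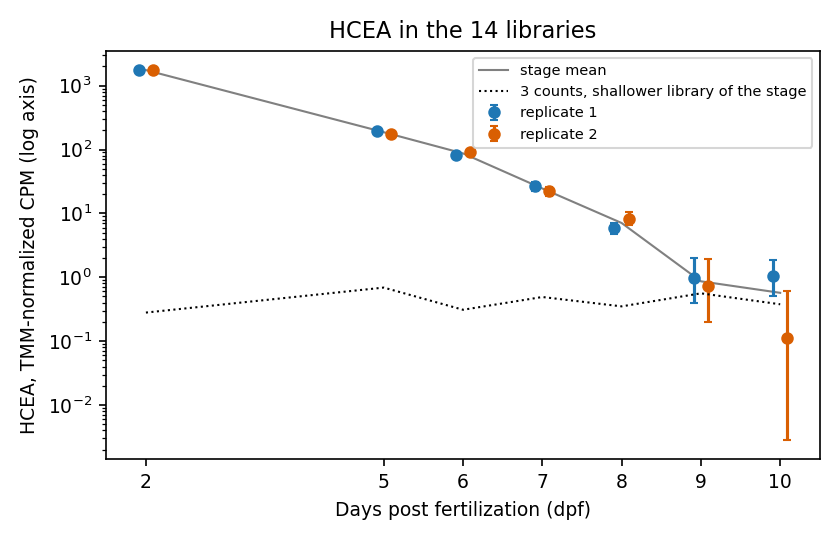
Points give the TMM-normalized CPM of HCEA in each of the 14 libraries (log axis) against the day post-fertilization. Bars are 95% Poisson intervals of the count, and the grey line joins the stage means. The dotted line is the CPM that 3 counts give in the shallower library of a stage, from its total counts without TMM. The points fall at each stage up to 9 dpf, with 1731 and 1778 CPM at 2 dpf and 0.987 and 0.742 CPM at 9 dpf, and the second 10 dpf library, with 1 count, lies below the dotted line.

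The stage mean was 1755 ± 33.7 CPM in 2 dpf embryos (SD, n = 2, as in all stages). In larvae it was 187 ± 15.2 CPM on day 5, 87.0 ± 7.63 CPM on day 6 and 24.6 ± 3.01 CPM on day 7. It was 7.08 ± 1.72 CPM on day 8, 0.864 ± 0.173 CPM on day 9 and 0.571 ± 0.651 CPM on day 10. Of the 2 dpf level, 10.7% was left on day 5, 4.96% on day 6, 1.40% on day 7, 0.403% on day 8 and 0.0493% on day 9. The order of the levels was thus the order of the stages, and 9 and 10 dpf, the last neighbors in it, did not differ beyond their spread. Within a stage the higher library exceeded the lower one by 1.03 to 1.42 times from 2 to 9 dpf, and by 9.32 times at 10 dpf. The second 10 dpf library, with its 1 count, has a 95% Poisson interval of 0.0028 to 0.617 CPM. Intervals on counts cover counting error only. A level in CPM is a share of the RNA of the whole fish. Fewer hatching gland cells, less HCEA RNA per cell and more RNA from the rest of the growing body cannot be told apart.

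Each stage was then compared with the stage before it, as the study did. A gene was called differentially expressed with an adjusted p under 0.05 and at least a 2-fold change in edgeR's quasi-likelihood test over 20329 genes. The study singled out HCEA among the genes of 2 dpf on these same libraries, so these tests are not independent evidence of its fall.

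Between 5 and 2 dpf HCEA fell by 3.23 on the log2 scale (SE 0.29, adjusted p = 2.94e-06), to a level 9.39 times lower. In this comparison 33.2% of all genes were called and 11.9% were called as falling, and 160 genes fell more than HCEA.

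In the next step, 6 against 5 dpf, HCEA fell by 1.10 (log2, SE 0.27, adjusted p = 0.0139), with 9.9% of genes called and 2.56% falling. At 7 against 6 dpf it fell by 1.83 (SE 0.28, adjusted p = 0.00603), with 2.61% of genes called and 1.4% falling. At 8 against 7 dpf it fell by 1.81 (SE 0.30, adjusted p = 0.0073), with 2.24% of genes called and 1.09% falling. In these steps 650, 81 and 42 genes, in this order, had a lower log2 change than HCEA. HCEA thus stayed among the called genes while calls became fewer.

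The fall at 9 against 8 dpf was 2.97 on the log2 scale (SE 0.46, adjusted p = 0.0118), or 7.83 times, and 5 tested genes had a lower log2 change, cdca9, adad1, LOC108265280 and hoxc1a among them, but none of the 5 was called (adjusted p of 0.208 to 0.492). They are named because of these values. Here 0.738% of genes were called and 0.152% fell. These last 4 calls rested on the replicates of both stages. Without single libraries the log2 change stayed between -1.25 and -1.07 for 6 against 5 dpf, between -1.96 and -1.67 for 7 against 6 dpf, between -2.06 and -1.56 for 8 against 7 dpf, and between -3.22 and -2.72 for 9 against 8 dpf. The adjusted p then lay between 0.0634 and 0.105 for 6 against 5 dpf, 0.0488 and 0.11 for 7 against 6 dpf, 0.0508 and 0.0919 for 8 against 7 dpf, and 0.0637 and 0.0936 for 9 against 8 dpf. The call held in a single case, 7 against 6 dpf without the first 6 dpf library.

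Between 10 and 9 dpf HCEA was not called. The log2 difference was -0.53 (SE 0.65, 95% interval -1.95 to 0.88, adjusted p = 0.645), against 1.29% of genes called and 0.959% falling. This value rested on the 10 dpf libraries. Without the first, which had 11 counts, it was -2.83 (adjusted p = 0.0297), and without the second, which had 1 count, it was 0.26 (adjusted p = 0.896).

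Over all the stages HCEA fell by 11.47 on the log2 scale between 10 and 2 dpf (SE 0.45, adjusted p = 4.68e-09), and no gene tested fell more. Only genes with many counts at 2 dpf have room for a fall of this size. In that comparison 50.2% of genes were called and 20.6% fell. Leaving out single libraries put this value between -13.78 and -10.65. The value for 9 against 2 dpf was steadier, at -10.94 (SE 0.45, adjusted p = 8.19e-09), or 1964 times lower, with -11.16 to -10.78 when single libraries were left out. There 44.1% of genes were called and 16.2% fell, and a single gene, si:ch211-57n23.4, fell more than HCEA (-11.89). It is named because of this value.

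Against 2 dpf, HCEA was called at each stage between these as well, with log2 changes of -4.33 for 6 dpf, -6.16 for 7 dpf and -7.97 for 8 dpf. The genes called were 33.2%, 38.6% and 39.3% of all in these comparisons, with 9.64%, 13% and 13.1% falling. Among larvae, HCEA fell by 2.93 at 7 against 5 dpf (adjusted p = 0.000342, with 4.48% of genes called and 1.49% falling). At 9 against 5 dpf it fell by 7.71 (adjusted p = 6.35e-07, with 14.9% called and 4.33% falling).

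HCEA was the only gene called as falling at each of the 5 steps from 2 to 9 dpf, 0.00492% of those tested. Of the others, LOC108259525 and LOC108269094 were called as falling in 4 of the 6 neighboring comparisons, 64 genes in 3 and 353 in 2. With separation of the libraries in place of a call, the libraries of each later stage lay below those of the stage before at all 5 steps in 66 genes, or 0.325%. HCEA again remained the single gene called at each of the 5 steps with RLE normalization, with no low-count filter, with the replicate number as a block and with DESeq2. A minimum of 10 counts in every library removed HCEA and left no such gene. Leaving out any one library of 5 to 9 dpf ended at least 1 of these calls, as given above, while the call of 5 against 2 dpf held without either 2 dpf library.

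The fall was also expressed per day, because the first step covers 3 days and the later ones 1 day each. No stage between 2 and 5 dpf was sampled, so the rate of the first step is an average over its 3 days. HCEA fell by 1.08 log2 units per day between 2 and 5 dpf (SE 0.096) and by 1.10 per day between 5 and 6 dpf (SE 0.27), which are rates that halve the level in 22.3 and 21.8 hours. It fell by 1.83 and 1.81 per day in the following 2 steps (SE 0.28 and 0.30), with halving in 13.1 and 13.2 hours. Between 8 and 9 dpf it fell by 2.97 per day (SE 0.46), with halving in 8.08 hours.

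**Figure D2:**
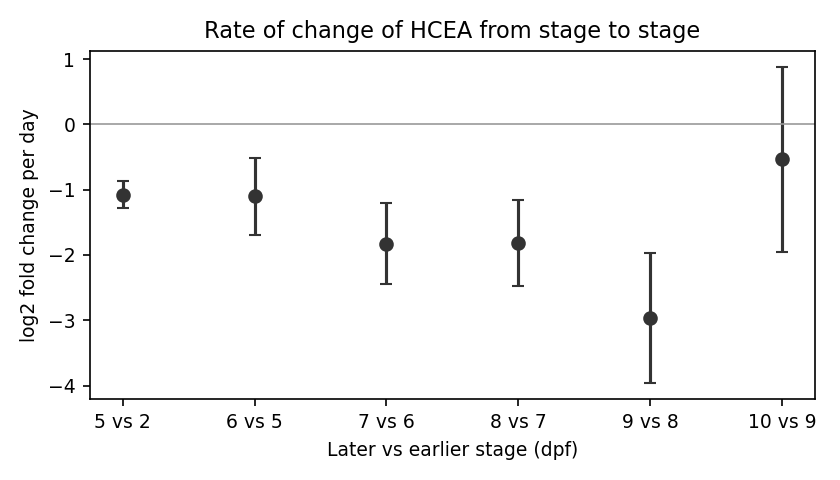
Points give the log2 fold change of HCEA per day (later over earlier stage) for each pair of neighboring stages, and bars are 95% intervals from the edgeR fit. The points lie at -1.08 and -1.10 for the first 2 pairs and at -2.97 for 9 against 8 dpf, while the interval for 10 against 9 dpf crosses 0.

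The average decline per day was faster between 5 and 10 dpf than between 2 and 5 dpf. The course within the earlier interval is not known, since no stage inside it was sampled. The rate between 5 and 10 dpf minus the rate between 2 and 5 dpf was -0.57 log2 units per day (SE 0.14, 95% interval -0.88 to -0.26, adjusted p = 0.00696). A difference in rate of either sign had an adjusted p under 0.05 in 40.1% of genes, and in 23.2% the later rate was the lower one, so that a difference as such does not set HCEA apart. With 9 dpf as the last stage the difference was -0.85 (SE 0.16, adjusted p = 0.00173). It was -1.03 without the first 10 dpf library (adjusted p = 5.11e-05) and -0.42 without the second (adjusted p = 0.00234). Without the first 5 dpf library it was -0.53, with an adjusted p of 0.0563.

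Depth and mapping rate alternated with stage, so average rates were also taken between stages on the same side of this division. In the deeper libraries the rate between 6 and 8 dpf minus that between 2 and 6 dpf was -0.74 (SE 0.18, adjusted p = 0.0223), where 11.5% of genes had an adjusted p under 0.05. In the shallower libraries the rate between 7 and 9 dpf minus that between 5 and 7 dpf was -0.93 (SE 0.31), of the same direction and a similar size, but its adjusted p was 0.279, with 0.9% of genes under 0.05. The steps of 2 days within a depth class gave a fall of 1.82 per day for 8 against 6 dpf (SE 0.15). The falls were 2.39 per day for 9 against 7 dpf (SE 0.21) and 1.75 per day for 10 against 8 dpf (SE 0.22). The genes called were 2.93%, 1.65% and 5.72% of all in these comparisons, with 0.605%, 0.246% and 1.88% falling. The value for 10 against 8 dpf was not refitted without single 10 dpf libraries.

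A straight line through the 12 libraries of 5 to 10 dpf gave a slope of -1.74 log2 units per day (SE 0.086, adjusted p = 3.09e-08), or a halving every 13.8 hours. This was the lowest slope of 19998 genes, of which 37.2% had a slope with an adjusted p under 0.05 and 17.9% a falling one. Genes with few counts at 5 dpf have no room for a slope this low. The slopes of 96.8% of genes lay within 0.5 log2 units per day of 0. Leaving out single libraries put the slope of HCEA between -1.82 and -1.69. Without the 10 dpf libraries it was -1.74 (SE 0.093), and a single gene of 19666, LOC108261436, had a lower slope (-1.80).

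**Figure D3:**
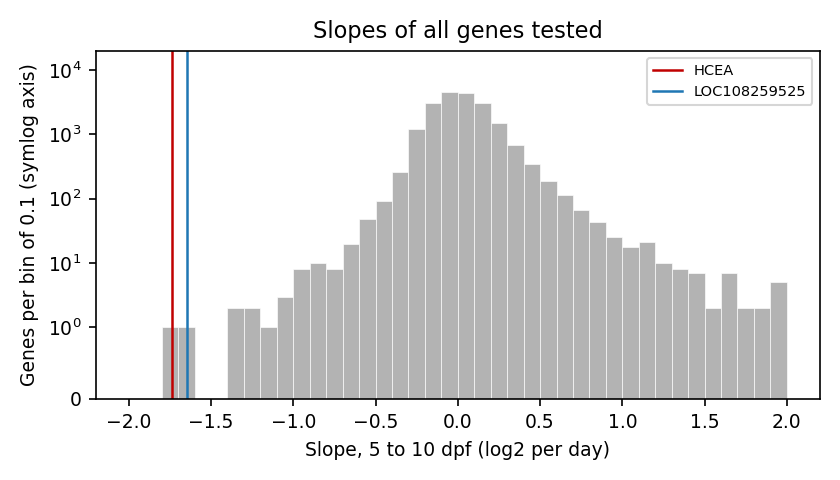
Grey bars count the genes in each bin of 0.1 log2 units per day of the slope between 5 and 10 dpf (symlog count axis), lines mark HCEA and LOC108259525, and 14 genes with slopes beyond the plotted range are not drawn. HCEA, at -1.74, and LOC108259525, at -1.64, stand at the low end, while 96.8% of genes lie within 0.5 of 0.

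The gene with the second lowest slope (-1.64, SE 0.092) was LOC108259525, which is also a near neighbor of HCEA. In the Coco_2.0 annotation a single gene, LOC128629285, lies between them. Of the 5 annotated genes on each side of HCEA, 3 of 10 were in the count table: LOC108259525, arl4ca and aox6. The other 7 carry LOC identifiers and were not analysed here.

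LOC108259525 had 1141 and 1151 CPM at 2 dpf, from 10744 and 11029 counts. The 5 dpf libraries had 811 and 997 counts, those of 6 dpf 470 and 628, those of 7 dpf 188 each and those of 8 dpf 77 and 52. On day 9 there were 4 and 5 counts left, and on day 10 there were 13 and 4. The 2 libraries of each stage up to 9 dpf lay below those of the stage before, as they did for HCEA. LOC108259525 fell by 2.71 (log2, SE 0.22, adjusted p = 1.52e-06) between 5 and 2 dpf. It fell by 1.68 at 6 against 5 dpf (adjusted p = 0.000571), by 2.44 at 8 against 7 dpf (adjusted p = 0.000851) and by 2.88 at 9 against 8 dpf (adjusted p = 0.00612). At 7 against 6 dpf its log2 difference of -0.89 was under the 2-fold threshold (adjusted p = 0.0366). Between 9 and 2 dpf it fell by 10.60.

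The other measured neighbors did not follow this course. The gene aox6, named for an aldehyde oxidase, had 25.2 to 49.0 CPM over the 14 libraries. The gene arl4ca, named for a small GTPase of the ADP-ribosylation factor-like family, had 0.371 to 3.67 CPM. Neither was called in any comparison of neighboring stages, and their log2 differences between 9 and 2 dpf were 0.18 for aox6 (adjusted p = 0.441) and -0.50 for arl4ca (adjusted p = 0.447).

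Of the 153 genes that averaged 1000 CPM or more in 2 dpf embryos, HCEA and LOC108259525 were the 2 with a mean under 1 CPM at 9 dpf. Both limits were chosen after their values were seen.

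The share of HCEA in the summed counts of this gene pair stayed between 44.5 and 62.8% up to 8 dpf, while both genes fell. It was 60.3% and 60.7% in the 2 dpf libraries, with 95% Clopper-Pearson intervals of 59.7 to 60.8 and 60.1 to 61.3. The 5 dpf libraries had shares of 52.0% and 51.3%, those of 6 dpf 62.8% and 60.2%, those of 7 dpf 46.3% and 44.5%, and those of 8 dpf 54.2% and 58.1%.

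As point values, the shares at 5 and 7 dpf (44.5 to 52.0%) did not overlap those at 2, 6 and 8 dpf (54.2 to 62.8%). The 8 dpf intervals, 46.3 to 61.9% and 48.9 to 66.9%, cover the 5 dpf shares, so these 2 stages are not told apart. The division by point values is the same as that by library depth and by mapping rate. The part of depth or mapping rate in the shares was not tested. From 9 dpf the counts were too few to place the share: the intervals were 30.8 to 89.1% and 13.7 to 78.8% at 9 dpf, and 25.6 to 67.2% and 0.51 to 71.6% at 10 dpf. Whether the 2 genes are similar enough in sequence for reads to be divided between them or set aside was not analysed here, so that the split between them is uncertain to that extent.

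**Figure D4:**
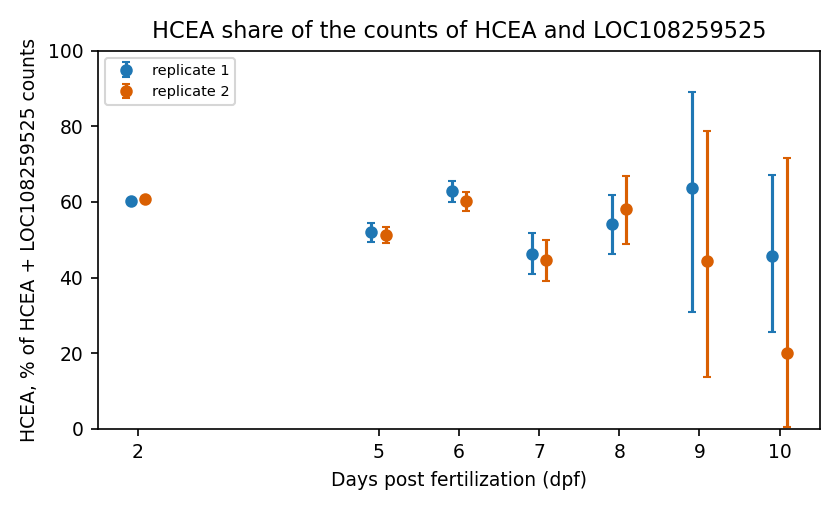
Points give the counts of HCEA as a percent of the summed counts of HCEA and LOC108259525 in each library, and bars are 95% Clopper-Pearson intervals. The share lies between 44.5 and 62.8% up to 8 dpf. Its point values are lower at 5 and 7 dpf than at 2, 6 and 8 dpf, but the bars of 8 dpf cover the shares of 5 dpf. The bars of 9 and 10 dpf span much of the axis.

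Genes were ranked by their likeness to HCEA over the 14 libraries, as Pearson's r of log2 CPM among 17507 genes with at least 1 CPM at 2 dpf. These libraries share stage and depth, so r is a description. LOC108259525 came first (r = 0.994), before LOC108279209 (0.989), incenp (0.984), pold2 (0.983), ttk (0.982), hspa4b (0.982), prmt5 (0.981), LOC108258365 (0.981), nom1 (0.980) and trmt6 (0.980). The product of incenp is a subunit of the chromosomal passenger complex, that of pold2 a subunit of DNA polymerase delta, and ttk encodes a kinase of the spindle checkpoint. The gene hspa4b encodes a chaperone, prmt5 an arginine methyltransferase and trmt6 a subunit of a tRNA methyltransferase. A high r did not mean the same course at each step, since LOC108258365 averaged 52.8 CPM at 5 dpf and 57.8 CPM at 6 dpf. All of these genes but LOC108259525 fell far less than HCEA, with 2.76 to 4.73 times less CPM at 9 than at 2 dpf. The gene incenp, for example, had 38.5 and 46.9 CPM at 9 dpf, against 158 and 137 CPM at 2 dpf.

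The distance between profiles of stage means, each set to 0 at 2 dpf, takes the size of the fall into account. LOC108259525 came first by this measure as well, at a root mean square distance of 0.63 log2 units, and the next were LOC108275253 (1.44), LOC108256960 (1.55) and LOC108256962 (1.87). It was the single gene among the first 10 by both measures. The first 10 also held nts, the gene of the neurotensin precursor, and lin28aa and lin28ab, genes of RNA-binding proteins that block the maturation of let-7 microRNAs. The gene lin28ab, for example, had 0.902 and 0.504 CPM at 5 dpf, against 39.5 and 45.9 CPM at 2 dpf.

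Genes that are known from the hatching gland of other fishes did not fall as HCEA did. Of 6 such genes sought by symbol, 4 were found in the table, without ctslb and foxa3, and these all passed the filter on low counts. At 5 against 2 dpf 2 of them fell and none rose, where 11.9% of all genes fell. The median log2 change of -1.18, against 0.02 over all genes, lies between the 2 that fell and the 2 that did not. The means of xbp1 were 182 CPM at 2 dpf and 184 CPM at 5 dpf, and those of cd63 238 and 278 CPM. The 2 that fell, klf17 and prdm1a, encode transcription factors, and neither was called as falling in a later neighboring comparison.

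The gene klf17 encodes a Krüppel-like factor that zebrafish hatching gland cells need. It had 25.9 and 22.0 CPM at 5 dpf, against 161 and 119 CPM at 2 dpf, a log2 change of -2.55 (SE 0.20, adjusted p = 1.05e-06). From 6 dpf on it had at most 26.7 CPM, and no later neighboring comparison called it.

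The gene prdm1a encodes the repressor Blimp-1, which takes part in the specification of hatching gland precursors in zebrafish. It had 2.48 and 3.69 CPM at 5 dpf, against 17.0 and 15.8 CPM at 2 dpf, a log2 change of -2.37 (SE 0.39, adjusted p = 0.000305). It then had 8.54 and 9.53 CPM at 6 dpf, a rise of 1.52 over 5 dpf (SE 0.41, adjusted p = 0.0205). At that step 7.34% of genes rose.

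The other 2 genes are active in many secretory cells. The gene of the unfolded protein response factor Xbp1 had 126 to 201 CPM over the 14 libraries. The gene of the tetraspanin Cd63 had 70.4 to 298 CPM, with its lowest value in the second 10 dpf library. Neither was called in any comparison, with log2 differences between 9 and 2 dpf of -0.10 for xbp1 and -0.05 for cd63.

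The other astacin family genes found by symbol did not share the fall of HCEA. Genes with LOC identifiers could not be found this way, and whether LOC108259525 belongs to the family was not examined. Of 7 genes listed by a symbol or by the start of a symbol, 6 were in the table, and 5 passed the filter. A start that matched no symbol would not be counted in the 7. None of the 5 was called as falling in any comparison of 2 stages. Between 0.152 and 20.6% of all genes fell in these comparisons, so no such call among 5 genes does not set them apart. At 2 dpf hce2l1 had 0 counts, c6ast4 had 1 and bmp1b had 11, which left them little or no room to fall. At 9 against 2 dpf 3 of the other 4 rose, hce2l1 set aside because it passed the filter through the 8 dpf libraries alone. In that comparison 27.9% of all genes rose.

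The gene bmp1b, of a bone morphogenetic protein 1 protease, had 4.28 and 5.04 CPM at 5 dpf, against 0.425 and 0.730 CPM at 2 dpf. It rose by 2.99 on the log2 scale (SE 0.37, adjusted p = 3.4e-05) and was the only gene of the 5 called at that step, in which 21.3% of all genes rose. Its paralog bmp1a had 182 and 212 CPM at 9 dpf, against 94.5 and 102 CPM at 2 dpf, a rise just past the 2-fold threshold (SE 0.25 on the log2 scale, adjusted p = 0.00376). The tolloid-like gene tll1 had 7.21 to 17.4 CPM over the 14 libraries and no call between stages, with a log2 difference of 0.53 at 9 against 2 dpf (adjusted p = 0.0371).

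The astacin gene c6ast4 had 65 and 317 counts at 9 dpf, against 1 count and 0 counts at 2 dpf (adjusted p = 0.00124). Its libraries at 9 dpf had 9.16 and 58.8 CPM, and those at 10 dpf 68.9 and 4.21 CPM. These 4 values split in the same way as those of prss1, with the first 9 dpf library and the second 10 dpf library low.

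The gene hce2l1 carries a second hatching enzyme name in the RefSeq table. It had no counts in either library of 2 dpf, when HCEA was at its highest. The 5 dpf libraries had 0 and 2 counts, those of 6 dpf none and those of 7 dpf 2 and 0. The 8 dpf libraries had 27 and 16 counts, or 1.74 and 1.84 CPM, and in both libraries of this stage it was above all earlier ones. It had 3 and 4 counts on day 9, and 11 counts and 1 count on day 10. It passed the filter through the 8 dpf libraries alone, so the comparisons of this stage with others carry no test here. No comparison of neighboring stages called it.

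**Figure D5:**
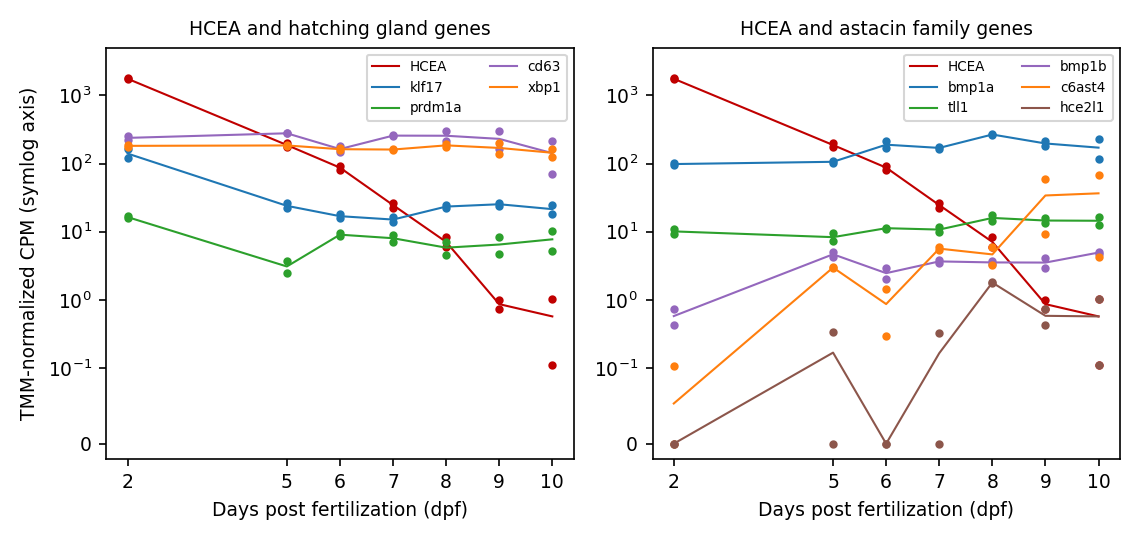
Points give the TMM-normalized CPM of each library (symlog axis) and lines join stage means, for HCEA with the 4 measured hatching gland genes on the left and for HCEA with the 5 astacin family genes that passed the filter on the right. HCEA falls from stage to stage up to 9 dpf, klf17 has at most 26.7 CPM from 5 dpf on, and xbp1 and cd63 stay at 70.4 CPM or more. None of the 5 other astacin family genes shown was called as falling, where at most 20.6% of all genes fell in a comparison.

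Genes of the egg and the germ line fell in part between 2 and 5 dpf. Of 21 such genes sought by symbol, 17 were found in the table, and 9 passed the filter. Of these, nanos3, buc and tdrd9 passed it through the 2 dpf libraries alone and had to fall. Of the other 6, 4 fell at 5 against 2 dpf and none rose, where 11.9% of all genes fell, and tdrd5 and piwil2 were not called. A minimum of 10 counts in every library left no member to test. With no filter 11 members of the whole list fell at this step, where 2371 of 23036 genes did. Members counted almost only at 2 dpf, such as dnd1, could only fall there, so this count is no support for the list. No member was called in any later neighboring comparison, where 0.738 to 9.9% of all genes were called. Few counts were left by then, such as 10 for ddx4 at 7 dpf, so the lack of calls does not set the list apart. The study placed ddx4 and nanos3 in a network drawn from these libraries, so the fall of ddx4 is not independent evidence.

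The gene tdrd6 encodes a Tudor domain protein of germ granules. It had 2.48 and 3.86 CPM at 5 dpf, against 22.4 and 23.8 CPM at 2 dpf, a log2 change of -2.83 (SE 0.30, adjusted p = 8.72e-06). The gene of the germ cell helicase Vasa, ddx4, had 1.58 and 2.02 CPM at 5 dpf, against 14.4 and 13.2 CPM at 2 dpf, a log2 change of -2.92 (SE 0.40, adjusted p = 7.8e-05). The maternal-effect gene zar1 fell by 1.65 (adjusted p = 0.00205), and mos, a kinase gene of oocyte maturation, fell by 1.44 (adjusted p = 0.0153). From 6 to 10 dpf these 4 genes stayed between 0.297 and 5.64 CPM.

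The egg envelope itself is built from zona pellucida proteins. Among 4 such genes 2 passed the filter. The gene zpd passed it through the 2 dpf libraries alone, so its fall is given as counts without a test: 5 counts and 0 counts at 5 dpf, against 45 and 18 counts at 2 dpf. The other, zp2l2, was not called in any comparison.

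Pancreatic protease genes, markers of acinar cells, were near 0 where HCEA was high. Of 12 such genes sought by symbol, 2 were found in the table, prss1 and the carboxypeptidase gene cpb1. Genes listed without such a symbol could not be found this way. At 2 dpf prss1 had 5 and 7 counts and cpb1 had 3 in both libraries. Both genes rose at 9 against 2 dpf, as 27.9% of all genes did, by 5.83 for prss1 (adjusted p = 0.00374) and by 7.33 for cpb1 (adjusted p = 0.00085), and neither was called between neighboring stages. The 9 dpf libraries stood far apart for both, with 8.60 and 66.0 CPM of prss1 and 15.1 and 92.4 CPM of cpb1.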

How the data were processed

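Libraries were made from rRNA-depleted RNA of pooled whole fish. The authors trimmed the paired reads with Trimmomatic 0.36, aligned them to a channel catfish reference genome with STAR 2.7.0 and counted them over exons with HTSeq. The version name of the assembly and the strand setting are not given in the sources used here. The deposited values are read counts per gene, not normalized, in 1 column per library. After 7 lines with 3 repeated identifiers had been added up there were 23231 genes, and 21834 of these matched a symbol in the RefSeq table of Coco_2.0, which was used for names and for the order of genes only.

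Counts were tested with edgeR 4.0.16 in R 4.3.3 (TMM, filterByExpr with stages as groups, quasi-likelihood test). All 14 libraries were fitted with a mean per stage. P-values were adjusted by the Benjamini-Hochberg method over 20329 genes, or 19998 genes for the slope from 5 to 10 dpf. A call needed an adjusted p under 0.05 and a log2 fold change of 1 or more in size, and for the rate difference and the slope the adjusted p alone. The SE was approximated from the fold change and its F statistic. Log2 CPM for the ranking by likeness used a prior count of 2. Scripts were tested on simulated data. Plots were drawn with Python 3.11.15 and matplotlib 3.10.9.

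Total counts were 4349807 to 16097718, and 3 counts were taken as the least that a library shows. No fish was shared between stages, and libraries were treated as unpaired. The alternatives were RLE normalization, no low-count filter, at least 10 counts in every library, the replicate number as a block, DESeq2 1.42.0, the 4 libraries of a comparison alone and leaving out each library. Rates within depth classes or without 10 dpf, and crossed replicate numbers, were added after seeing the data.

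HCEA and the gene lists were chosen with earlier results of these data known. Named by rule were HCEA, astacin family genes with at least 1 CPM at a stage, the 5 annotated genes on each side, up to 4 genes of each other list by mean CPM, and the 10 genes of highest r. The RefSeq table holds no gene descriptions, so the astacin family and egg envelope lists were matched by symbol after the files were seen. Gene lengths were not used here. The share of HCEA in its pair with LOC108259525 and the limits in CPM are thus not corrected for length. Levels of different genes were not compared otherwise. Genes near the top of the second likeness measure, and those named for a single value, were named after their values were seen.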

Additional observations from a re-analysis of the deposited data

Results flagged for a closer look

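The average rate of decline of HCEA differed between 2 intervals under the same measure, the log2 change per day. The rate between 5 and 10 dpf minus the rate between 2 and 5 dpf was -0.57 log2 units per day (SE 0.14, adjusted p = 0.00696 in edgeR's quasi-likelihood test), and 40.1% of all genes passed the same test. The 5 dpf libraries enter both rates, and no stage between 2 and 5 dpf was sampled. Dixon's test for a single far sample was not applied, since each stage has 2 libraries.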

How the results depend on the processing

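For HCEA, the log2 changes of each later stage against 2 dpf, those of 7 and 9 dpf against 5 dpf and the slope from 5 to 10 dpf kept their direction and their side of the threshold under every alternative that gave a value. Leaving out single libraries, which leaves a stage with 1 library assumed to vary like the others, gave -1.25 to -1.07 for 6 against 5 dpf, -1.96 to -1.67 for 7 against 6 dpf, -2.06 to -1.56 for 8 against 7 dpf, -3.22 to -2.72 for 9 against 8 dpf and -1.03 to -0.42 for the rate difference. Their direction held, and the calls were lost as given in the report. For 10 against 9 dpf the range was -2.83 to 0.26, with the sign reversed without the second 10 dpf library. The rate difference within the shallower stages was -0.93 and did not pass the threshold (adjusted p = 0.279). The causes were not tested. A minimum of 10 counts in every library removed HCEA, and the 4 libraries of 9 and 10 dpf alone gave no value for it.

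In the model with a replicate block, the log2 change of HCEA was -3.23 at 5 against 2 dpf (adjusted p = 1.32e-05) and -2.98 at 9 against 8 dpf (adjusted p = 0.0273), and the block changed no call of HCEA. Same-numbered libraries did not move together: correlations of their deviations across genes lay between -0.585 and 0.161. With crossed numbers in fits of 4 libraries, 432 genes were called at 9 against 8 dpf, 796 at 10 against 9 dpf and 9982 at 10 against 2 dpf, where the deposited numbers as a block gave 268, 4 and 9833.

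Counts of called genes over the whole table moved by over 1.5 times in the following cases. With at least 10 counts in every library they were 4300 against 6757 at 5 against 2 dpf, 3945 against 6741 at 6, 4799 against 7855 at 7, 4673 against 7980 at 8, 5515 against 8955 at 9 and 6503 against 10207 at 10 against 2 dpf, 551 against 910 at 7 against 5 dpf and 1761 against 3021 at 9 against 5 dpf. Fewer genes were tested there. With only the 4 libraries of a comparison they were 1160 against 531 at 7 against 6 dpf, 834 against 455 at 8 against 7 dpf, 47 against 150 at 9 against 8 dpf, 1642 against 910 at 7 against 5 dpf and 0 against 262 at 10 against 9 dpf. In edgeR's fit with 0 calls, 636 genes had an unadjusted p under 0.05 with the same fold, and DESeq2 on all libraries called 338. Leaving out single libraries gave 859 to 1239 against 2012 at 6 against 5 dpf, 22 to 100 against 531 at 7 against 6 dpf, 73 to 316 against 455 at 8 against 7 dpf, 0 to 91 against 150 at 9 against 8 dpf, 55 to 3381 against 262 at 10 against 9 dpf, 319 to 377 against 910 at 7 against 5 dpf, 1677 to 3988 against 3021 at 9 against 5 dpf and 4648 to 10375 against 8155 for the rate difference, so the shares of called genes in the report move with these libraries. In the edgeR fit with 0 calls at 9 against 8 dpf, 579 genes had an unadjusted p under 0.05 with the same fold, and DESeq2 on all libraries called 207. Depth limits HCEA from 9 dpf on, where its levels rest on 1 to 11 counts per library.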
